A study of Mus musculus with 6 samples.

Results

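Collagens, laminins, nidogens, fibronectin and Sparc make up much of the extracellular matrix, and integrins, the discoidin domain receptors and Mrc2 are receptors through which cells hold or take up that matrix. The gene set described here holds 83 of the 18193 genes with a named probe set on the array. Genes were chosen by symbol: every collagen chain, laminin chain and integrin chain, together with Nid1, Nid2, Fn1, Sparc, Ddr1, Ddr2 and Mrc2. Their 176 probe sets were read out of 34945 that carry a single gene symbol, and each gene was represented by its brightest probe set, judged by the mean over all 6 arrays. Probe sets for Col21a1, Col6a6, Col28a1, Itga11 and Itgad were not analysed here.

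The arrays come from MIN6, a mouse insulinoma line that is used as a model of the insulin-secreting beta cell. Both groups were transfected by nucleofection together with a lipid reagent. The control group received a negative control siRNA from Qiagen and the treated group received an siRNA against mouse Hlxb9 from Dharmacon. Hlxb9, now named Mnx1, encodes a homeodomain transcription factor of beta cells and motor neurons. RNA was taken 72 hours after transfection, and each group has 3 arrays from separate transfections of the same line. Per the labels, the treated samples were picked by a knockdown of more than 75% of the protein on western blots. The labels also describe the material as sorted subpopulations, and name no gate.

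Collagen chains are secreted as triple helices. Fibrillar types form the fibres of connective tissue, while type IV forms the sheet of the basement membrane together with laminins and nidogens. Integrins are pairs of an alpha and a beta chain that bind these proteins and pass the contact on to the cytoskeleton. Ddr1 and Ddr2 are receptor tyrosine kinases that collagen itself activates, and Mrc2 (Endo180, also called uPARAP) is an endocytic receptor that carries collagen fragments to the lysosome. In the islet, beta cells contact a laminin-rich basement membrane that is laid down largely by endothelial cells.

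Values are RMA signals on the log2 scale, so a difference of 1 is a doubling, and all differences are Hlxb9 siRNA minus control siRNA with the standard error of the limma fit. No gene of the array passed an adjusted p of 0.05 in limma, so percent called was 0 for all 18193 genes and for the 83. The lowest adjusted p among the 83 was 0.645. The targeted transcript, Mnx1, had 7.82, 7.50 and 7.77 in control siRNA and 7.53, 7.41 and 7.28 in Hlxb9 siRNA. Its difference was -0.29 ± 0.13, with limma's adjusted p = 0.659. The groups overlapped, and an exact two-sided permutation test gave p = 0.2, where the smallest p that 3 arrays against 3 allow is 0.1. The array of control siRNA replicate 3 stood apart from the other 5. It scored 68.2 on the first principal component, against -21.7 to -3.40, and its Gapdh probe sets differed by 2.13 between the 3' and 5' ends, against 0.65 to 0.78. Its part in the differences was not tested beyond leaving it out. Values without it are given for each class, as a median or for single genes.

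MIN6 identity was checked against marker lists. All 7 beta cell markers on the array were brighter than the median probe set, with Ins2 at a mean of 13.83 and Iapp at 14.41. Of 7 fibroblast and stellate cell markers, Pdgfrb alone was brighter than the median probe set, and of 6 endothelial markers none was. Of 4 ductal markers, Krt7 alone was, at 11.80. The mean signal of the fibroblast list was 3.97 to 4.11 across control arrays and 3.97 to 4.12 across Hlxb9 arrays. The endothelial list gave 3.43 to 3.63 and 3.31 to 3.55, and the list of 5 macrophage markers gave 4.03 to 4.29 and 4.13 to 4.20. The ductal list gave 5.47 to 5.60 and 5.53 to 5.63.

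Across the 83 genes, 29 differences were above 0 and 54 were below, with a median of -0.11. In bulk RNA, fewer cells with a transcript and less of it per cell cannot be told apart. Over all 18193 genes the median was 0.0023 and 49.4% of differences were below 0, against 65.1% in the set. The negative median lay with dim probe sets. For the 54 genes with signals at or below the median probe set (5.16), 42 differences were below 0 and the median was -0.13. All 6848 genes of that range had a median of -0.050, with 62.6% below 0. For the 29 brighter genes, 17 differences were above 0 and the median was 0.11, beside 0.036 for all 11345 brighter genes. Control siRNA replicate 3 was the highest of the 6 arrays for 33 of the 83 genes (39.8%) and for 35.7% of all genes. Without it, the median over the 83 genes was -0.042, and 0.027 over all genes. The median of the dim genes of the set was then -0.070 and that of the brighter ones 0.071.

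**Figure D1:**
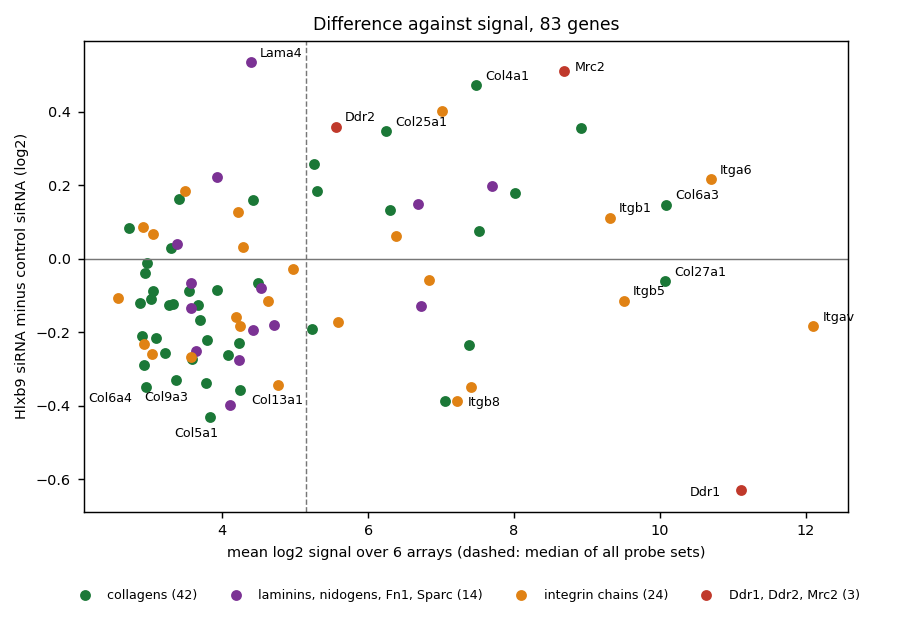
Each of the 83 genes is a point, with the mean log2 signal over 6 arrays on the x axis and the difference between Hlxb9 siRNA and control siRNA (log2) on the y axis; the dashed line is the median of all probe sets. Most of the 54 points left of the dashed line lie below 0, while Ddr1, Mrc2 and Col4a1 lie far from 0 at high signal. Signals of different probe sets are not comparable as RNA amounts.

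Counted at an unadjusted limma p under 0.05, 11 of the 83 genes differed (13.3%), beside 7.95% of all genes. Of these, 5 were higher (Mrc2, Col4a1, Lama4, Ddr2 and Col25a1; 4.21% of all genes were counted as higher) and 6 were lower (Ddr1, Col5a1, Itgb8, Col13a1, Col6a4 and Col9a3; 3.74% of all genes). With the replicate number as a block, 18 of the 83 genes had an unadjusted p under 0.05, beside 9.19% of all genes, and none had an adjusted p under 0.05. Without control siRNA replicate 1 the count was 17, beside 9.52% of all genes. It was 7 without Hlxb9 siRNA replicate 1 (3.74% of all genes) and 7 without replicate 2 of that group (4.06%). Without control siRNA replicate 3, 9 genes were counted, beside 10.2% of all genes. It was 8 without control siRNA replicate 2 (6.48% of all genes) and 12 without Hlxb9 siRNA replicate 3 (7.35%). In 5 genes every Hlxb9 array was above every control array, and in 10 every Hlxb9 array was below. Over all genes those shares were 9.55% and 7.75%, or 17.3% in either direction. A fit that weights each array by its own scatter called 6 of the 83 genes at limma's adjusted p of 0.05, beside 2.50% of all genes: Ddr1, Mrc2, Col4a1, Col6a4, Col25a1 and Col13a1. Its weights were 4.46 for control siRNA replicate 2 and 2.91 for Hlxb9 siRNA replicate 2, against 0.20 to 0.79 for the other arrays. The same fit called none of the 83 when any 1 array was left out.

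**Figure D2:**
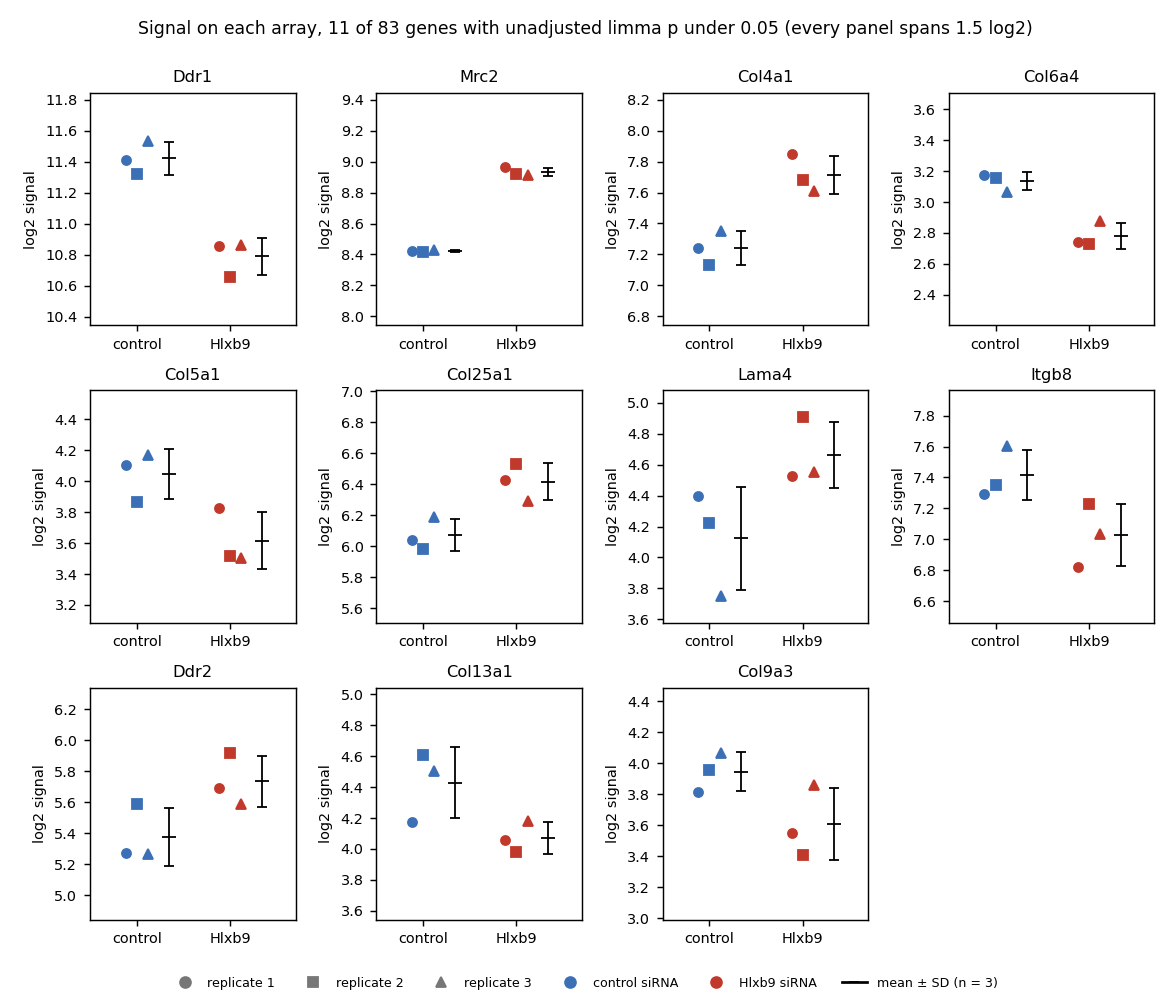
Log2 signal on each array for the 11 genes with an unadjusted limma p under 0.05, with control siRNA in blue, Hlxb9 siRNA in red, the symbol showing the replicate number and the bar the mean ± SD (n = 3). The groups are separate in Ddr1 and Mrc2 by more than the spread of either, while those of Ddr2, Col13a1 and Col9a3 overlap.

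Ddr1 and Mrc2, receptors that bind collagen without being integrins, had the 2 widest differences among the 29 brighter genes. Ddr1, a collagen-activated receptor kinase of epithelial cells, had 11.41, 11.32 and 11.53 in control siRNA and 10.85, 10.65 and 10.86 in Hlxb9 siRNA. All 3 Hlxb9 arrays lay below all 3 control arrays. The means were 11.42 ± 0.11 and 10.79 ± 0.12 (SD, n = 3 each), a difference of -0.63 ± 0.11, or 1.55-fold lower. The unadjusted limma p was 0.000587 and the adjusted p 0.645, so the difference did not pass the test across all probe sets. Between arrays of the same replicate number it was -0.56, -0.67 and -0.67, and leaving out any 1 array kept it between -0.68 and -0.56.

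Ddr1 has 8 probe sets, and they differed in sign. The next brightest, 1456226_x_at, had 11.42, 11.23 and 11.73 in control siRNA and 10.64, 10.47 and 10.79 in Hlxb9 siRNA, a difference of -0.83 ± 0.15. Probe set 1439382_x_at differed by -0.63 ± 0.17. All 5 probe sets of the _x_at class, whose probes can match other transcripts as well, were lower, including dim ones at -0.10 and -0.34. The 3 plain probe sets differed by -0.089 ± 0.13 (1415797_at), 0.15 ± 0.12 (1459990_at) and 0.22 ± 0.19 (1415798_at), and in each the groups overlapped. Over the array, the median difference was -0.073 for 2441 _x_at probe sets and 0.0085 for the others, or -0.032 and 0.016 without control siRNA replicate 3. So 4 of the 5 _x_at probe sets separated the groups and none of the 3 plain ones did. The part of other transcripts in the _x_at signals was not tested.

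Mrc2, the endocytic collagen receptor, had 8.42, 8.42 and 8.43 in control siRNA and 8.96, 8.92 and 8.92 in Hlxb9 siRNA. The groups were far apart for their spread, at 8.42 ± 0.0038 and 8.93 ± 0.028 (SD, n = 3 each). The difference was 0.51 ± 0.092, or 1.42-fold higher, with limma's unadjusted p of 0.000624 and adjusted p of 0.645. It was 0.51 without control siRNA replicate 3. The other Mrc2 probe set, 1421044_at, was much dimmer, with 5.31, 5.58 and 5.31 in control siRNA and 4.98, 5.26 and 5.40 in Hlxb9 siRNA. Its difference was -0.19 ± 0.14, of the opposite sign, and its groups overlapped.

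Ddr2, the discoidin domain receptor of mesenchymal cells, had 5.27, 5.59 and 5.26 in control siRNA and 5.69, 5.92 and 5.59 in Hlxb9 siRNA. Replicate 2 was the highest in both groups, and the lowest Hlxb9 array equalled the highest control array to 2 decimals. The difference was 0.36 ± 0.14, with limma's adjusted p = 0.653, while its second probe set differed by -0.17.

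**Figure D3:**
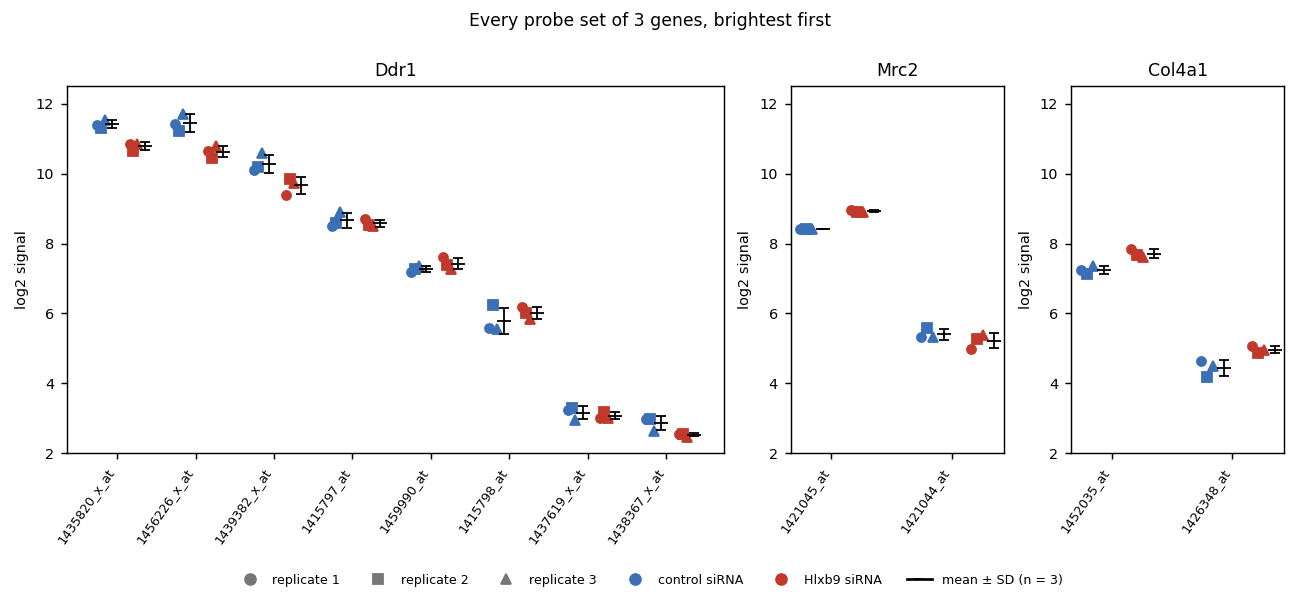
Log2 signal of every probe set of Ddr1, Mrc2 and Col4a1 on each array, brightest first, with control siRNA in blue, Hlxb9 siRNA in red and bars for the mean ± SD (n = 3). The 3 brightest Ddr1 probe sets separate the groups and its 3 plain probe sets do not; both Col4a1 probe sets are higher in Hlxb9 siRNA, whereas those of Mrc2 differ in sign.

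Among the basement membrane and network collagens, 5 of 11 differences were above 0 and 6 below, with a median of -0.013, or 0.057 without control siRNA replicate 3, and Col4a1 had the widest. Col4a1 encodes the alpha1 chain of type IV collagen, the main collagen of basement membranes. Its values were 7.24, 7.13 and 7.35 in control siRNA and 7.85, 7.68 and 7.61 in Hlxb9 siRNA. All Hlxb9 arrays were above all control arrays, with means of 7.24 ± 0.11 and 7.71 ± 0.12 (SD, n = 3 each). The difference was 0.47 ± 0.11, or 1.39-fold higher, and limma's adjusted p was 0.645. Its second probe set, 1426348_at, had 4.64, 4.17 and 4.50 against 5.08, 4.87 and 4.94, a difference of 0.53 ± 0.14 in the same direction, again without overlap.

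Col4a2 encodes the chain that assembles with Col4a1, and the pair is transcribed in opposite directions from a shared promoter. In RefSeq (GRCm38.p6) the start sites of the pair face each other at chr8:11312801-11312830, shown here because the genes differed in sign. Capitals run from the Col4a2 start to the Col4a1 start, on the plus strand:
Col4a2 and Col4a1 start sites: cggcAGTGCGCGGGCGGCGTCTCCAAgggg
The capitals cover 22 bases. Col4a2 had 3.79, 3.80 and 4.10 in control siRNA and 3.58, 3.73 and 3.72 in Hlxb9 siRNA, a difference of -0.22 ± 0.12, or -0.12 without control siRNA replicate 3. Its signal, from a single probe set, exceeded that of 32.3% of all probe sets. The groups did not overlap, and the value did not pass the test.

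Other chains of type IV lay close to 0 on dim probe sets, from -0.12 for Col4a3 to 0.16 for Col4a4, or -0.059 and 0.078 without control siRNA replicate 3. Col18a1, whose C-terminal fragment is endostatin, had 7.33, 7.51 and 7.63 in control siRNA and 7.66, 7.89 and 7.14 in Hlxb9 siRNA. The Hlxb9 arrays spanned the control arrays and the difference was 0.075 ± 0.19, or 0.15 without control siRNA replicate 3. Col8a1, a short-chain network collagen of vessel walls and the cornea, had 6.93, 7.27 and 7.56 in control siRNA and 6.32, 7.13 and 7.15 in Hlxb9 siRNA. Its difference was -0.39 ± 0.25, or -0.23 without control siRNA replicate 3. Each Hlxb9 array was below the control array of its own number, and the unadjusted limma p was 0.167 without the block and 0.024 with it. The other Col8a1 probe sets differed by -0.058 and -0.0011.

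Fibrillar collagens, which form the fibres of bone, skin and cartilage, had 2 differences above 0 and 9 below. Their median was -0.23, or -0.18 without control siRNA replicate 3. Of the 11 genes, 3 were brighter than the median probe set, and with the dim ones left out the median was 0.13. Col5a1, which starts fibrils of type I collagen, had 4.11, 3.86 and 4.17 in control siRNA and 3.83, 3.52 and 3.50 in Hlxb9 siRNA. The groups did not overlap and the difference was -0.43 ± 0.14, with limma's adjusted p = 0.645. Its other probe sets differed by -0.10 and 0.059. Col1a1 and Col1a2, the chains of type I collagen, differed by 0.13 ± 0.21 and -0.23 ± 0.13, and Col3a1 by -0.29 ± 0.21. Col5a3, another type V chain, differed by -0.33 ± 0.15 and Col11a1, a chain of cartilage fibrils, by 0.19 ± 0.23. In Col3a1, control siRNA replicate 3 was at 3.59 and the other 5 arrays were at 2.74 to 2.87. Without that array Col3a1 differed by -0.033 and Col1a1 by -0.089. The bright Col27a1, a fibrillar collagen of cartilage, had 10.38, 10.07 and 9.86 in control siRNA and 10.36, 10.06 and 9.70 in Hlxb9 siRNA. Its arrays followed the replicate number rather than the group, and the difference was -0.062 ± 0.20, or -0.18 without control siRNA replicate 3.

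Of the fibril-associated, anchoring and beaded-filament collagens on the array, 5 of 16 differences were above 0 and 11 below, with a median of -0.11 that was 0.036 without control siRNA replicate 3. Col6a4, a chain of beaded filaments, had 3.18, 3.16 and 3.07 in control siRNA and 2.74, 2.73 and 2.88 in Hlxb9 siRNA. The groups were apart by -0.35 ± 0.10, with a signal above 10.9% of all probe sets. The other Col6a4 probe set differed by -0.026. Col9a3, a chain of the type IX collagen of cartilage, differed by -0.34 ± 0.14 with overlapping groups. Col6a1, a type VI chain, had 3.01, 2.99 and 2.99 in control siRNA and 2.74, 2.85 and 2.79 in Hlxb9 siRNA. Its groups did not overlap and differed by -0.21 ± 0.094. Of the 6 genes of the class brighter than the median probe set, 4 differences were above 0. Col22a1, a collagen of tissue junctions, had 8.83, 8.98 and 8.41 in control siRNA and 9.34, 9.18 and 8.76 in Hlxb9 siRNA. Each Hlxb9 array was above the control array of its number, while the groups overlapped, and the difference was 0.36 ± 0.20. It was 0.19 without control siRNA replicate 3. The unadjusted limma p was 0.109, and 0.0218 with the replicate block. Its other probe sets differed by -0.027 and 0.52. Col6a3, the long chain of type VI collagen, had 9.72, 10.13 and 10.19 against 9.74, 10.36 and 10.38, a difference of 0.15 ± 0.21 with broad overlap, or 0.24 without control siRNA replicate 3. Col20a1, a fibril-associated collagen, differed by 0.18 ± 0.15.

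The transmembrane collagens, which are anchored in the cell membrane and shed from it, held Col25a1 on the higher side and Col13a1 on the lower. Their median was -0.19, or -0.24 without control siRNA replicate 3. Col25a1 is known for a role in motor innervation of muscle. It had 6.04, 5.98 and 6.19 in control siRNA and 6.43, 6.53 and 6.29 in Hlxb9 siRNA. The groups did not overlap and the difference was 0.35 ± 0.11, while a second, dimmer probe set differed by -0.18. Col13a1, found at cell-matrix junctions, had 4.17, 4.61 and 4.51 in control siRNA and 4.06, 3.98 and 4.18 in Hlxb9 siRNA. The lowest control array lay within the Hlxb9 range, and the difference was -0.36 ± 0.14. Limma's adjusted p was 0.645 for Col25a1 and 0.653 for Col13a1. Col23a1 and Col17a1 differed by -0.26 and -0.12, the latter by -0.22 without control siRNA replicate 3.

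Laminins and nidogens, the other scaffold of the basement membrane, had 5 differences above 0 and 7 below, with a median of -0.072, or -0.0071 without control siRNA replicate 3. Lama4, the laminin chain typical of vessel walls, had 4.40, 4.22 and 3.75 in control siRNA and 4.53, 4.90 and 4.55 in Hlxb9 siRNA. The groups did not overlap and the difference was 0.54 ± 0.19, but control siRNA replicate 3 was the lowest array. Without it the difference was 0.35, and the gene's other probe set differed by -0.18. Lamc1, the gamma chain of most laminins, had 8.09, 7.76 and 6.96 in control siRNA and 7.88, 7.85 and 7.67 in Hlxb9 siRNA. The same control array set the sign: the difference was 0.20 ± 0.26 with it and -0.12 without it. Lamb1, the partner beta chain, differed by 0.15 ± 0.16 on its brightest probe set, or by 0.26 without that array. A dimmer one, 1451241_at, had 4.67, 4.87 and 4.92 against 4.38, 4.38 and 4.46, a difference of -0.42 ± 0.11 with no overlap. Lama2, the alpha chain of muscle and Schwann cell laminin, differed by -0.40 ± 0.19, with an unadjusted limma p of 0.0739 and, with the block, 0.0169. Lamb3, an epithelial beta chain, differed by 0.22 ± 0.13 on a dim probe set with no overlap. Lama5, the alpha chain of many epithelial basement membranes, differed by -0.13 ± 0.19. Nid1 and Nid2, which link laminin to type IV collagen, differed by -0.065 ± 0.11 and -0.13 ± 0.16. Without control siRNA replicate 3, Lama5 differed by -0.011 and Nid2 by -0.030.

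Sparc, a collagen-binding matricellular protein, had 4.15, 4.38 and 4.55 in control siRNA and 4.001, 4.13 and 4.12 in Hlxb9 siRNA. All Hlxb9 arrays were below all control arrays, with a difference of -0.27 ± 0.13 and limma's adjusted p = 0.666. The difference was -0.18 without control siRNA replicate 3. Its other probe sets differed by -0.21 and -0.29, so all 3 had the same sign. Fn1, fibronectin, had 4.29, 4.79 and 4.50 against 4.30, 4.39 and 4.29, a difference of -0.20 ± 0.14 with overlap.

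**Figure D4:**
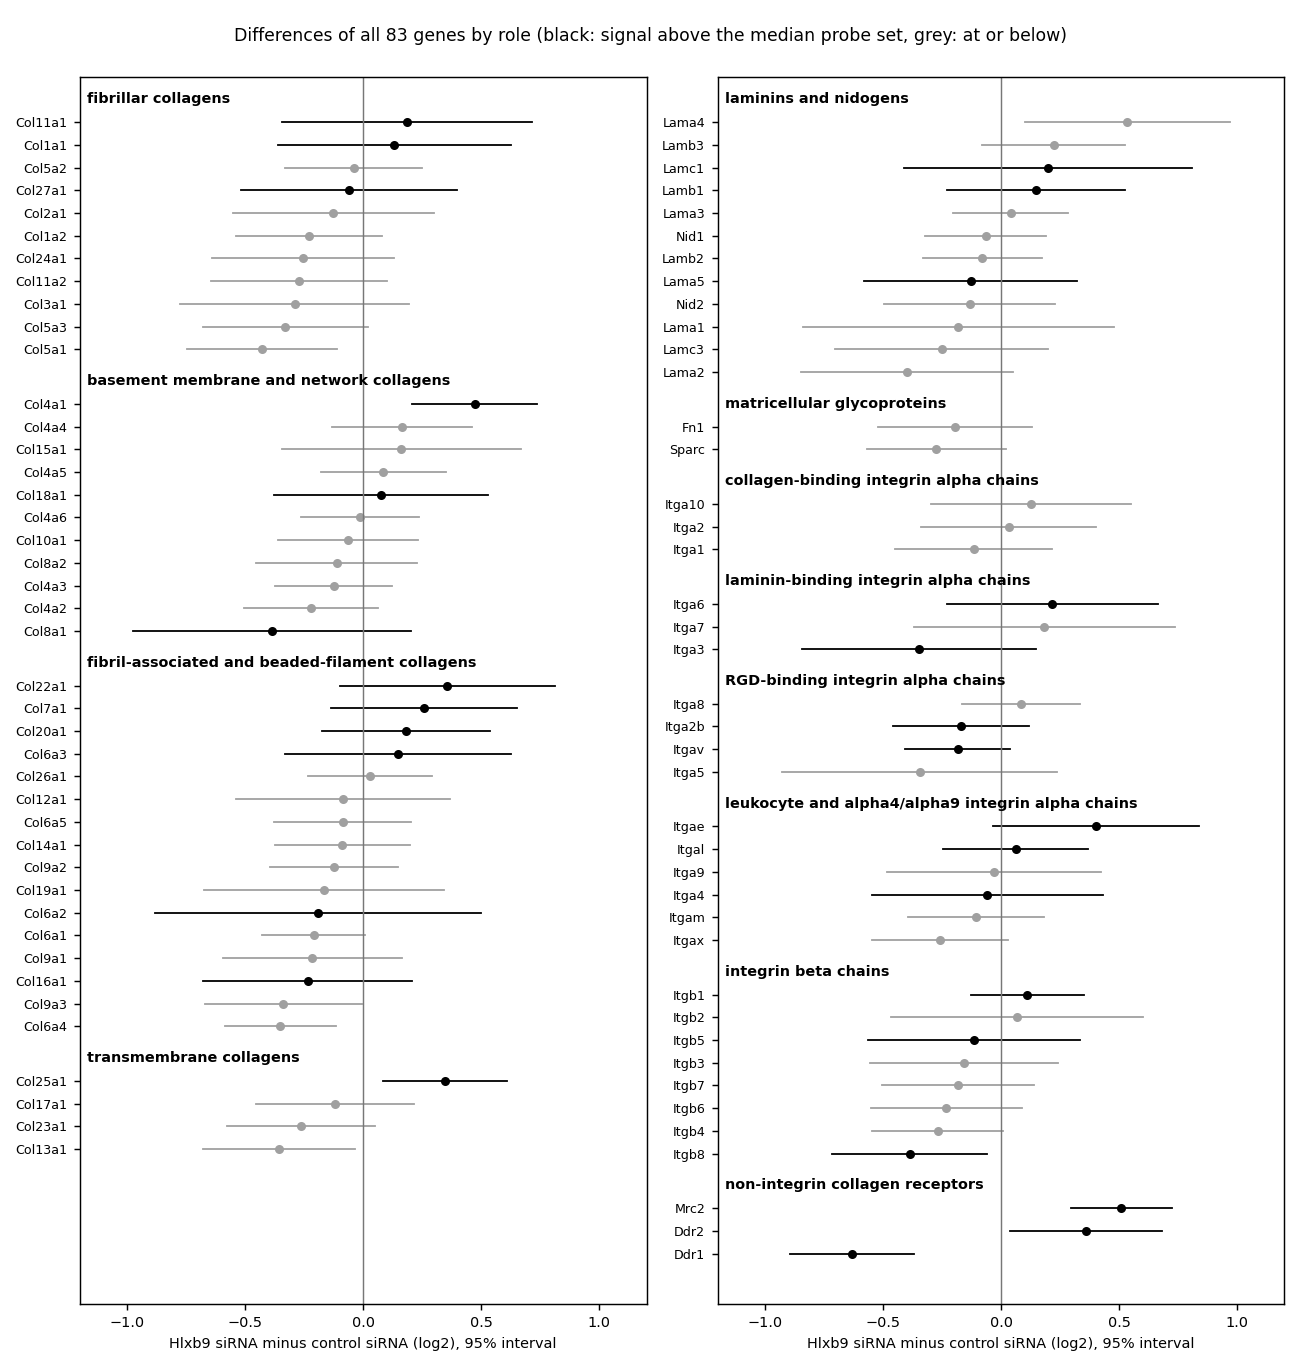
Differences between Hlxb9 siRNA and control siRNA (log2, x axis) with their 95% intervals for all 83 genes, ordered within classes, black where the signal was above the median probe set and grey where it was not. The intervals of the 11 genes with an unadjusted limma p under 0.05 leave out 0, which restates that p, as the same fit gives both. Ddr1, Mrc2 and Ddr2 are all 3 among them.

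Of the 24 integrin chains, 9 differences were above 0 and 15 below, with a median of -0.11, or -0.059 without control siRNA replicate 3. Itgav, the alphaV chain that pairs with several beta chains to bind RGD motifs, was bright and tight. Its values were 12.22, 12.14 and 12.21 in control siRNA and 11.96, 12.07 and 11.997 in Hlxb9 siRNA. The groups did not overlap, but the difference was -0.18 ± 0.10, with an interval of -0.41 to 0.039. The 4 other Itgav probe sets differed by -0.34 to 0.037. Itgb8, a chain that pairs with alphaV to activate latent TGF-beta, had 7.30, 7.35 and 7.60 in control siRNA and 6.82, 7.23 and 7.04 in Hlxb9 siRNA. All Hlxb9 arrays were lower, and the difference was -0.39 ± 0.14, or -0.29 without control siRNA replicate 3, with limma's adjusted p = 0.645. Itgb5, also a partner of alphaV, had 9.28, 9.42 and 9.97 against 9.52, 9.57 and 9.23. Its difference was -0.11 ± 0.19, and 0.093 without control siRNA replicate 3. Itgb6 and Itgb3 differed by -0.23 and -0.16 on dim probe sets, the latter by -0.042 without that array.

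Itgb1, the beta chain common to collagen, laminin and fibronectin receptors, had 9.26, 9.35 and 9.18 in control siRNA and 9.29, 9.45 and 9.38 in Hlxb9 siRNA. The groups overlapped. The difference was 0.11 ± 0.10 and its interval ran from -0.13 to 0.35, and without control siRNA replicate 3 it was 0.071. The 5 other Itgb1 probe sets differed by -0.20 to 0.30. Itga6, the main laminin-binding alpha chain of epithelial cells, had 10.93, 10.66 and 10.18 against 10.98, 10.77 and 10.67. Its difference was 0.22 ± 0.19, and 0.013 without control siRNA replicate 3. A second probe set differed by 0.57, and by 0.21 without that array. Itga3, another laminin-binding chain, had 7.23, 7.45 and 8.07 against 7.22, 7.41 and 7.07. Its difference of -0.35 ± 0.21 was -0.11 without the same array. Itgb4, the partner of Itga6 in hemidesmosomes, differed by -0.27 ± 0.12 on a dim probe set, with no overlap. Itga7, the laminin-binding chain of muscle, differed by 0.18 ± 0.24, or by 0.29 without that array.

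The collagen-binding chains Itga1, Itga2 and Itga10 were all dimmer than the median probe set and differed by -0.12 ± 0.14, 0.032 ± 0.16 and 0.13 ± 0.18. These were -0.074, 0.14 and 0.063 without control siRNA replicate 3. Itga5, the fibronectin receptor chain, differed by -0.35 ± 0.25, and Itga2b, the platelet chain that pairs with Itgb3, by -0.17 ± 0.12. Among chains named for leukocytes, Itgae, the alphaE chain that binds E-cadherin, had 6.41, 6.81 and 7.20 in control siRNA and 7.16, 7.23 and 7.23 in Hlxb9 siRNA. Its difference was 0.40 ± 0.19, or 0.60 without control siRNA replicate 3, and the second probe set differed by 0.36 ± 0.12 with no overlap. Neither passed the test across all probe sets, at adjusted p of 0.666 and 0.645 in limma. The macrophage chains Itgam and Itgax differed by -0.11 and -0.26, and the lymphocyte chains Itgal and Itga4 by 0.062 and -0.058, Itga4 by -0.094 without that array. Of 5 macrophage markers, Cd68 differed by 0.54 ± 0.13 and Csf1r by -0.36 ± 0.10. Their part in the integrin values was not tested.

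**Figure D5:**
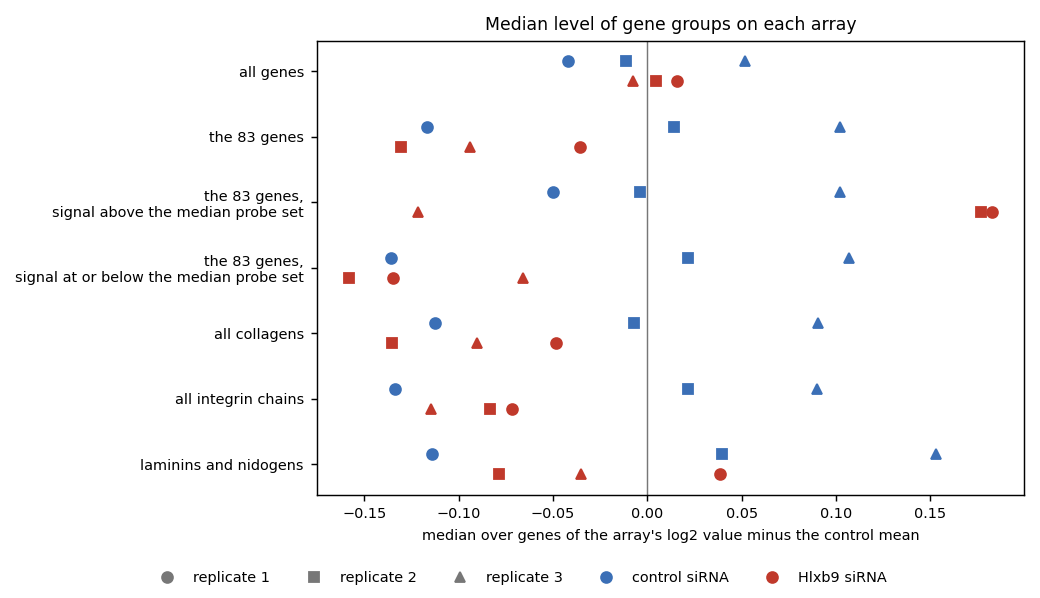
For each array, the median over the genes of a group of the log2 value minus the mean of the control arrays (x axis), with control siRNA in blue, Hlxb9 siRNA in red and the symbol showing the replicate number. In the dim genes of the 83 and in all collagens, control siRNA replicate 1 lies among the Hlxb9 arrays and replicate 3 lies highest. Control siRNA replicate 2 also lies above every Hlxb9 array in both groups of genes, so replicate 1 alone overlaps them.

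Other probe sets of the same genes were read as well. Of 53 genes with several, 33 (62.3%) held probe sets of opposite sign, beside 59.3% of 9010 such genes on the array. In 16 of them (30.2%) probe sets differed by at least 0.1 in both directions, beside 24.8%. Among the 93 probe sets that were not the brightest of their gene, 7 had an unadjusted limma p under 0.05 (7.53%), beside 7.98% of the 16752 such probe sets of all genes. They belonged to 5 genes: Ddr1, Col4a1, Lamb1, Itgae and Col19a1. Col19a1 had a difference of -0.42 ± 0.13 on such a probe set and -0.17 on its brightest, the latter 0.050 without control siRNA replicate 3.

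RefSeq places 9 pairs of the 83 genes next to each other, and 5 pairs had the same sign, among them Col6a2 and Col6a1 at -0.19 and -0.21, although Col6a2 differed by 0.20 without control siRNA replicate 3. Promoter windows of 300 bases (250 before the start and 50 after it) were given for 59 of the 83 genes, in 68 windows. The homeodomain core TAATTA, which is its own reverse complement, was found in 2 of the 68 (2.94%), beside 5.29% of 32851 windows of all genes. These are shown with the motif in capitals, as the targeted factor has a homeodomain. The first lies at chr10:34389863-34389892 and the second at chr17:34039011-34039040 (GRCm38.p6, plus strand, RefSeq):
Col10a1: gacttcccaccaTAATTAgtgcttcttgcc
Col11a2: aggactgctctgTAATTAcatgtggcagga
Col10a1, a collagen of growth plate cartilage, differed by -0.065 ± 0.13 and Col11a2, a fibrillar collagen of cartilage, by -0.27 ± 0.16, both with overlapping groups. Col10a1 differed by 0.050 without control siRNA replicate 3. The GC-box letters GGGCGG were searched on both strands, and 38 of the 68 windows held them (55.9%), beside 35.7% of all windows.

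Genes that make, cut or link this matrix were taken from 5 lists, and none of their genes passed limma's adjusted p of 0.05. Of 19 genes for collagen synthesis and crosslinking, 10 differences were above 0 and 9 below, with a median of 0.0014 (0.066 without control siRNA replicate 3), and none had an unadjusted p under 0.05, beside 7.95% of all genes. The collagen prolyl 3-hydroxylase P3h1 differed by -0.19 ± 0.13, or -0.30 without that array, and its partner Crtap by 0.18 ± 0.14. Pcolce, which enhances procollagen cleavage, differed by -0.22, or by 0.21 without control siRNA replicate 3, and Loxl3, a lysyl oxidase, by 0.17.

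Of 18 matrix proteases and inhibitors, 1 was higher and 2 were lower at an unadjusted limma p under 0.05 (16.7% in all, beside 7.95% of all genes). The sheddase Adam10 had means of 11.24 ± 0.087 and 10.82 ± 0.022 (SD, n = 3 each). All its Hlxb9 arrays were lower, with a difference of -0.41 ± 0.10, although its other 3 probe sets differed by -0.054 to 0.11. The membrane collagenase Mmp14 differed by -0.37 ± 0.10 on a dim probe set. Mmp16, a related membrane protease, differed by 0.43 ± 0.15, while its other 3 probe sets differed by -0.26 to 0.23. The inhibitor Timp2 differed by 0.23 ± 0.11, while its 5 other probe sets differed by -0.22 to 0.33. The median of the 18 differences was 0.010, or 0.022 without control siRNA replicate 3.

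Among 22 other matrix proteins, 2 were higher and 2 lower by the same count (18.2%, beside 7.95% of all genes). Matn2, a filament-forming adaptor, had means of 8.05 ± 0.14 and 7.51 ± 0.18 (SD, n = 3 each), a difference of -0.54 ± 0.13 without overlap, and its second probe set differed by -0.28. The proteoglycan Vcan differed by -0.43 ± 0.18 with overlapping groups, while its 7 other probe sets differed by -0.065 to 0.29. Ecm1 differed by 0.42 ± 0.15, or by 0.30 without control siRNA replicate 3, and agrin (Agrn) by 0.24 ± 0.10. Of 19 genes of the integrin adhesion complex, the kinase Src alone was counted (5.26%). It differed by -0.32 ± 0.13 on a dim probe set, or by -0.22 without control siRNA replicate 3. The adaptor Bcar1 differed by -0.32, or by -0.028 without control siRNA replicate 3, while Itgb1bp1 and Rsu1 each differed by 0.19, Rsu1 by 0.097 without that array. Of 16 other matrix receptors, Cd47, the receptor of thrombospondin, alone was counted (6.25%), at 0.35 ± 0.13. The syndecans Sdc2 and Sdc3 differed by 0.23 and -0.23, and dystroglycan (Dag1) by -0.17, or by -0.069 without that array. The medians of the last 3 lists were -0.038, -0.0016 and 0.080. They were 0.028, 0.033 and 0.0096 without control siRNA replicate 3, so the signs of the first pair turned.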

How the data were processed

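RNA of MIN6 cells was hybridised to 6 Affymetrix arrays, 3 for control siRNA and 3 for Hlxb9 siRNA. The deposited values are log2 signals summarised by RMA in Partek, per the submitters' processing notes; versions were not given in these sources. No further normalisation was applied. Genes were named through GEO's platform annotation: 34945 probe sets have 1 symbol, 932 have several and 9160 are unnamed, and 64 control probe sets were left out. All 83 members matched RefSeq by gene ID. limma 3.58.1 in R 4.3.3 (lmFit, eBayes, two-sided, Benjamini-Hochberg over 45037 probe sets, adjusted p of 0.05) compared the groups. The fit was also run on simulated data with added differences of 1 log2 or more. Those were wider than any difference among the 83 members, so that run does not speak to differences of their size. Members and gene lists were chosen with earlier results of these data known. Genes named were Mnx1, Ddr1, Mrc2, in each class up to 3 members with the smallest unadjusted p and 3 with the highest signal, and in each pathway list the 2 with the smallest p in each direction. Members outside this rule (Col3a1, Col4a3, Col4a4, Col10a1, Col11a2, Col17a1, Col19a1, Col6a2, Nid1, Nid2 and Itgb3) were named after their values were seen. The numbers of the arrays pair them weakly by their values, although the labels state no shared day. Residuals of same-numbered control and Hlxb9 arrays correlated at 0.155, 0.165 and 0.202. Those of control and Hlxb9 arrays with different numbers correlated at no more than 0.072. Alternatives were the replicate block, array weights, other probe sets, filters, scalings and each array left out. The number of arrays limits precision, and p-values measure the spread between transfections of 1 line.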

Additional observations from a re-analysis of the deposited data

How the results depend on the processing

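No probe set was called under the settings tried other than array weights. Array weights called 1132 of 45037 probe sets and 6 of the 83 genes, beside 2.50% of all genes. Together with the replicate block they called 2323 of 45037 probe sets and 12 of the 83 genes. The share of all genes called was not computed for that setting, so the 12 cannot be set against it. The count of the 83 genes at an unadjusted limma p under 0.05 was 11 (13.3%, beside 7.95% of all genes). It became 18 with the replicate block (21.7%, beside 9.19%), 30 with array weights (36.1%, beside 24.6%) and 30 with weights and block (36.1%, beside 26.4%). It was 7 with probe sets averaged by gene (8.43%, beside 7.76%), 6 of 29 without dim probe sets (20.7%, beside 9.15%) and 3 of 53 with the second brightest probe set (5.66%, beside 7.87%). With 1 array left out it was 7 to 17. The median of the 83 genes (-0.11) became 0.11 without dim probe sets and 0.032 with the second brightest, and -0.16 to -0.042 with 1 array left out. Mnx1 passed under no setting, and the block alone changed no call.

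The signs of these differences turned, and the cause was not tested. Array weights gave Col1a1 -0.037, Itga10 -0.099, Itga2 -0.033, Itga7 -0.043, Itga4 0.040 and Itgb5 0.080. Weights with the replicate block gave Itga10 -0.090, Itga2 -0.082, Itga4 0.067 and Itgb5 0.10. Centring each array gave Itga2 -0.020. Repeating quantile normalisation gave Itgal -0.010. Averaging probe sets gave Col27a1 0.048, Lamb1 -0.028 and Itga1 0.0020. Plain probe sets gave Col1a2 0.16, Lama5 0.055 and Itgb5 0.075. The second brightest probe set gave Col5a1 0.059, Col1a2 0.16, Col27a1 0.16, Col1a1 -0.10, Col9a3 0.081, Col25a1 -0.18, Col23a1 0.17, Lama4 -0.18, Lamc1 -0.079, Lama5 0.055, Fn1 0.036, Itga1 0.12, Itga4 0.063, Itgb6 0.12, Mrc2 -0.19 and Ddr2 -0.17. With 1 array left out, the range was Col27a1 -0.22 to 0.11, Col1a1 -0.089 to 0.28, Col11a1 -0.084 to 0.34, Col18a1 -0.091 to 0.29, Col6a3 -0.00053 to 0.36, Lamc1 -0.12 to 0.44, Lama5 -0.29 to 0.026, Itga1 -0.23 to 0.016, Itga10 -0.070 to 0.24, Itga2 -0.081 to 0.16, Itga7 -0.11 to 0.37, Itga4 -0.26 to 0.16, Itgal -0.0074 to 0.18 and Itgb5 -0.25 to 0.093.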
